A study of Mus musculus with 17 samples.

Results

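The effect of losing NgBR on the liver transcriptome was compared between 2 diets for 9 genes: Dmxl1, Gprin3, Pirb, Arl4d, Cisd1, Pdk2, Lamtor4, Txn2 and Bri3. They are 9 of the 19032 genes present in the gene-count tables of both diets. The 9 genes were chosen by measured values, namely because the change between knockout and WT liver differed between the high-fat diet (HFD) and the Western diet (WD). The HFD change, the WD change and the difference of these changes are therefore given for them as descriptions. Where a count of them past a threshold is printed for these contrasts, it stands beside the share of all genes and is no evidence of its own. Tumor libraries took no part in the choice, although the livers they are compared with did. All 9 genes passed the filter on low counts in each comparison.

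Bulk RNA-seq was performed on mouse liver and liver tumor after 16 weeks of diet. HFD libraries came from 4 livers of WT mice and 4 livers of mice whose liver lacks NgBR (N-LKO). WD libraries came from 3 WT livers, 3 N-LKO livers and 3 tumors of N-LKO mice. In N-LKO mice, Cre driven by the albumin promoter, which is active in hepatocytes, removes a loxP-flanked part of the gene for NgBR (Nus1). The paper names endothelial, stellate and Kupffer cells as examples of liver cells that express NgBR. Which cell types kept the gene was not measured in these libraries. The mice were male and of the C57BL6 background according to the study's methods; the labels give no age and no allele of the WT mice beyond WT. Libraries are labelled as biological replicates, without saying whether a tumor and a liver came from the same animal. The WD changes and the tumor changes share libraries, and the HFD livers were deposited in a table of their own. A difference in level between diets therefore cannot be told apart from a difference between tables, and only changes within a diet, and the difference of these changes, are compared. The difference of the changes is called a difference between diets below, but it too cannot be told apart from a difference between tables.

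Total counts per library ran from 9096110 to 12215784 under HFD and from 15494731 to 20200618 under WD. Nus1, the targeted gene, was lower in each N-LKO library than in each WT library of its diet: the groups spanned 82.5 to 96.2 CPM (counts scaled to a common library total) for WT and 29.4 to 38.0 CPM for N-LKO under HFD, and 88.2 to 98.9 CPM in WT livers, 41.7 to 51.1 CPM in N-LKO livers and 28.99 to 43.99 CPM in tumors under WD. Its log2 change was −1.33 (SE 0.097, edgeR adjusted p = 0.000194) under HFD and −1.02 (SE 0.16, adjusted p = 0.151) under WD. Markers of hepatocytes (Alb, Ttr, Apoa1, Cps1, Cyp2e1 and Hnf4a) were detected in every library, with a summed level of 62996 to 78883 CPM under HFD and 33374 to 60900 CPM under WD. In bulk tissue, fewer cells of a type and less RNA per cell cannot be told apart.

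The 9 genes have no single pathway in common. Dmxl1 encodes a large WD-repeat protein of the rabconnectin family, which helps to assemble the vacuolar ATPase, the proton pump that acidifies lysosomes and endosomes. Lamtor4 is a subunit of Ragulator, the lysosomal complex that anchors the Rag GTPases and thereby brings mTORC1 to the lysosome when amino acids are plentiful. Cisd1 (mitoNEET) is an iron-sulfur protein of the outer mitochondrial membrane, Txn2 is the mitochondrial thioredoxin, which keeps protein thiols and peroxiredoxins reduced, and Pdk2 is a kinase that switches off the pyruvate dehydrogenase complex and so spares glucose when fat is burned. Arl4d is a small GTPase of the ARF-like family that recruits cytohesins to the plasma membrane. Gprin3 belongs to a family of proteins that bind activated G proteins, and Bri3 encodes a small membrane protein. Pirb is an inhibitory receptor for MHC class I molecules on myeloid cells and B cells.

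The upstream sequences of 4 of the genes are shown because 3 of them move one way between the diets (Lamtor4, Pdk2 and Arl4d) and the other one (Gprin3) the opposite way. RefSeq promoter windows (GRCm38.p6) of 8 of the 9 genes were examined, 10 windows in all. Dmxl1 was left out of this search, so its upstream sequence was not examined. The 250 bases before the annotated start were searched on both strands for the E-box CACGTG, the cAMP response element TGACGTCA, the CCAAT box CCAAT and the GC box GGGCGG, which were picked after these sequences had been read. The windows printed hold no annotated exon, and capitals mark the E-box, the cAMP response element and the CCAAT box (ATTGG on the other strand).
Lamtor4, chr5:138255232-138255481, plus strand: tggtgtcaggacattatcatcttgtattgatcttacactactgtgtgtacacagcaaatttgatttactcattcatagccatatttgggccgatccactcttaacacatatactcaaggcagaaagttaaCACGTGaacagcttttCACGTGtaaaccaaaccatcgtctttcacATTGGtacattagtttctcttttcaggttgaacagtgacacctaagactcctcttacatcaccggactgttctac
Pdk2, chr11:95041372-95041621, minus strand: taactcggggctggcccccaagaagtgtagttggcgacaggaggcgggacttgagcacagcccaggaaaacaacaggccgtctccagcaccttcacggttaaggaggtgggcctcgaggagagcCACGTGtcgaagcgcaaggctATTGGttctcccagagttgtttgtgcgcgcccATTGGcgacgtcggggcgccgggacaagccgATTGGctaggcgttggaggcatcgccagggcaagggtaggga
Arl4d, chr11:101665291-101665540, plus strand: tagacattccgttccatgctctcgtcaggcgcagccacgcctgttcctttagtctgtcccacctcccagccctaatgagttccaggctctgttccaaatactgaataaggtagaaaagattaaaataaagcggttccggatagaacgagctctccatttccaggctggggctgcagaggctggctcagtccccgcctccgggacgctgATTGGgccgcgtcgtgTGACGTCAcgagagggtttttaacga
Gprin3, chr6:59426307-59426556, minus strand: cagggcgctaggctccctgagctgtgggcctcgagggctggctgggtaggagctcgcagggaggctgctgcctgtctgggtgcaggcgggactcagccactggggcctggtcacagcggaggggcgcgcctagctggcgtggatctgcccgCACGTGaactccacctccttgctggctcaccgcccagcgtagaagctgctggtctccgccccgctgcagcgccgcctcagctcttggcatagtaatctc

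Lamtor4 held 2 E-boxes, the first 120 bases before the start, Pdk2 held 1 farther upstream than its CCAAT boxes and Gprin3 held 1 at 99 bases. Of the 10 windows, 4 held an E-box (those of these 3 genes and 1 of Bri3), as did 6.02% of all 32851 windows of this length. Since the motifs were picked from these sequences, nothing is read from the shares. A cAMP response element was found in Arl4d alone, 26 bases before its start (1.55% of all windows), next to a CCAAT box at 42 bases. Pdk2 held 3 CCAAT boxes, and 4 of the 10 windows had at least 1 (33.8% of all windows). A GC box stood in 4 of the 10 windows (32.7% of all windows). GC content ran from 39.6% in Lamtor4 to 68.8% in Gprin3, with a median of 52.4% over all windows. These matches describe letters, and no binding was measured.

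Under HFD, 6 of the 9 genes were higher and 3 were lower in N-LKO than in WT livers, and under WD the signs of all 9 were turned. The edgeR threshold (adjusted p of 0.05 over all genes tested) was passed by 7 of the 9 under HFD, where 4.84% of all 13460 genes passed, by 0 of the 9 under WD, where 0% of 17829 genes passed, and by 9 of the 9 in the difference, where 1.62% of 15850 genes passed. The libraries of the 2 genotypes did not overlap for 8 of the 9 genes under HFD (14.8% of all genes) and for 8 of the 9 under WD (27.9% of all genes). These contrasts chose the genes, so nothing is read from the counts. Under WD, 2212 genes had an unadjusted p under 0.05 by edgeR, and by DESeq2 99 genes passed, 0 of the 9 among them. Along with the WD changes, the summed level of the hepatocyte markers was 50023 to 60900 CPM in WT livers, 35921 to 44172 CPM in N-LKO livers and 33374 to 58538 CPM in tumors, and 6 of 6 were below 0 in N-LKO against WT livers (median −0.55, 0 passing). Cholangiocyte markers summed to 6.92 to 8.53 CPM, 13.3 to 16.8 CPM and 27.3 to 62.9 CPM in these groups. All 4 were above 0 in N-LKO against WT livers (median 0.87, 0 passing). In tumors against N-LKO livers only Sox9 was above 0 and passed, and the other 3 were below 0 (median −0.84). With single libraries left out, that Sox9 call held in 2 of 9 fits. Under HFD the hepatocyte sum was 68541 to 78883 CPM in WT and 62996 to 77808 CPM in N-LKO livers, which overlapped. The part of cell composition in the changes of the 9 genes was not tested.

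**Figure D1:**
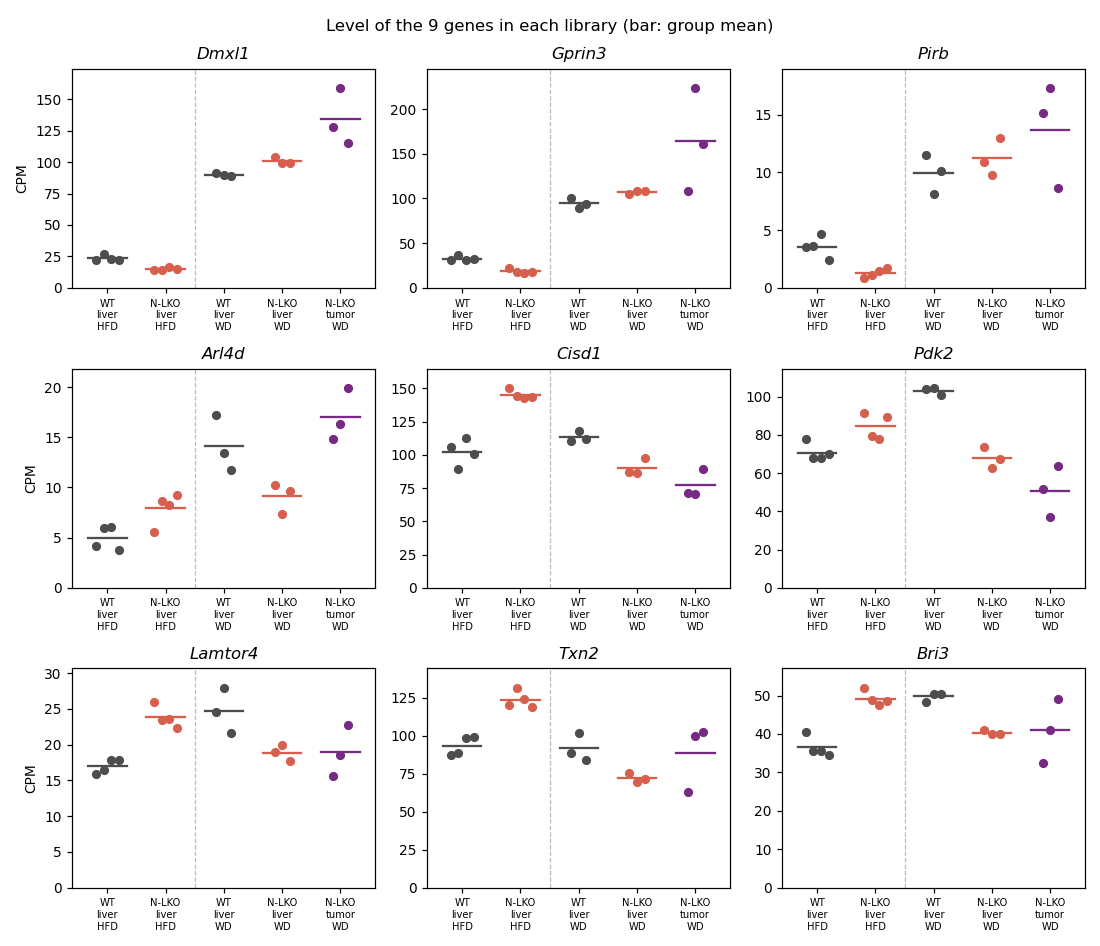
Each panel plots the level (CPM, counts scaled to a common library total) of 1 gene in each of the 17 libraries; points are libraries, bars are group means, and the dashed line divides the HFD table from the WD table. Dmxl1, Gprin3 and Pirb are lower in N-LKO than in WT livers left of the line, whereas the other 6 genes are higher there and lower right of it.

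Dmxl1 (ENSMUSG00000037416.13) is annotated on the plus strand at chr18:49832670-49965473 of GRCm38. Its longest transcript has 43 exons and 12247 bp, longer than those of 99.1% of genes. Its level in the 4 WT livers under HFD was 22.2, 26.6, 22.8 and 21.8 CPM, and in the 4 N-LKO livers 14.5, 14.01, 16.5 and 14.6 CPM. Every N-LKO library was thus below every WT library, with a log2 change of −0.65 (SE 0.10). Under WD the order was the opposite: the WT livers stood at 90.9, 90.1 and 88.8 CPM and the N-LKO livers at 104.4, 99.2 and 99.2 CPM. That change was smaller, 0.17 on the log2 scale (SE 0.14), and the WT group was narrow (coefficient of variation 1.199%). The difference between diets was 0.84 (SE 0.12). The tumors, at 127.95, 159 and 115 CPM, lay above all WD livers of both genotypes.

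Gprin3 (ENSMUSG00000045441.5, chr6:59347226-59426294, minus strand, 2 exons, 8339 bp) behaved alike. The WT livers under HFD held 30.7, 36.3, 31.02 and 31.9 CPM and the N-LKO livers 22.7, 18.1, 16.9 and 18.1 CPM, a log2 change of −0.78 (SE 0.11) without overlap. Under WD the WT livers held 101, 89.7 and 94.2 CPM and the N-LKO livers 104.9, 109 and 109 CPM, a log2 change of 0.18 (SE 0.22). Both groups were narrow under WD, and the lowest N-LKO liver was just above the highest WT liver. The difference between diets was 0.98 (SE 0.14). In the tumors the level spread widely, with 108, 223 and 160.6 CPM, the lowest of which lay within the range of the N-LKO livers.

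Pirb (ENSMUSG00000058818.13, chr7:3711409-3720391, minus strand, 15 exons, 3824 bp) had the largest difference between diets of the 9 genes, 1.68 (SE 0.33), and the lowest counts. It belongs to a cluster of similar receptor genes, and its counts were fractional, so that reads shared with its relatives make its values uncertain. With 10.2 to 42.2 estimated counts per HFD library, its level was 3.53, 3.61, 4.69 and 2.40 CPM in the WT livers and 0.846, 1.15, 1.41 and 1.67 CPM in the N-LKO livers. The 2 genotypes did not overlap, and the log2 change was −1.49 (SE 0.29). Under WD it was 11.51, 8.15 and 10.1 CPM in WT and 10.9, 9.81 and 12.9 CPM in N-LKO livers, which overlapped (log2 change 0.17, SE 0.25). Tumors, at 15.1, 17.3 and 8.68 CPM, overlapped both.

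Markers of Kupffer cells, the resident macrophages of the liver (Clec4f, Vsig4, Timd4, Cd5l, Marco, Adgre1 and Csf1r), moved with Pirb under HFD. Their summed level was 124 to 184 CPM in WT and 61.9 to 127 CPM in N-LKO livers, and 4 of the 7 were lower at the threshold (Clec4f −0.90, Marco −1.62, Timd4 −2.19 and Vsig4 −1.002 on the log2 scale, edgeR adjusted p = 0.0435, 0.0439, 0.00749 and 0.0455). With single libraries left out, Timd4 passed in 8 of 8 fits, Clec4f and Marco in 2 and Vsig4 in 1. Of the 4 only Timd4 passed once an offset, a correction fitted per library for the trend of counts with transcript length and GC content, was added. Under WD all 7 were again below 0 in N-LKO against WT livers (median −0.45), whereas Pirb was at 0.17. The sum of these markers was 488 to 714 CPM in WT and 437 to 519 CPM in N-LKO livers under WD, where 0 of the 7 passed, and 159 to 433 CPM in tumors. Markers of recruited and lipid-associated macrophages ran the other way, with 46.0 to 89.6 CPM in WT and 88.2 to 145 CPM in the N-LKO livers under HFD, 150 to 356 CPM and 371 to 447 CPM under WD, and 500.4 to 807 CPM in tumors. Spp1, which codes for osteopontin, passed under HFD (1.55, edgeR adjusted p = 0.0139). The paper also uses Spp1 as a marker of its tumor-enriched hepatocyte cluster, so it is not particular to macrophages. In tumors 3 of the 7 Kupffer markers were lower than in WT livers (Cd5l, Marco and Timd4), and 3 of the 7 of recruited macrophages were higher (Cd9, Itgax and Spp1). No marker of either list was at 0 in any library. B-cell markers summed to 0.678 to 3.65 CPM over the 17 libraries. The part of these cells in the Pirb values was not tested.

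Arl4d (ENSMUSG00000034936.2, chr11:101665541-101667832, plus strand, 2 exons, 1382 bp), whose upstream window is shown above, had the largest difference among the genes that were higher in N-LKO livers under HFD. The WT livers under HFD held 4.17, 5.93, 6.004 and 3.77 CPM and the N-LKO livers 5.55, 8.65, 8.27 and 9.28 CPM. N-LKO replicate 1 lay within the WT range, which makes Arl4d the only one of the 9 genes whose HFD groups overlapped. The log2 change was 0.68 (SE 0.21) under HFD. Under WD the WT livers held 17.2, 13.4 and 11.7 CPM and the N-LKO livers 10.3, 7.36 and 9.68 CPM, a log2 change of −0.63 (SE 0.20). The difference between diets was −1.29 (SE 0.29). In tumors the level was back in the range of WT or above it, with 14.8, 16.4 and 19.9 CPM, higher than in each N-LKO liver.

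Cisd1 (ENSMUSG00000037710.8, chr10:71330480-71344954, minus strand, 3 exons, 1084 bp) had the highest level per length of the 9 genes in every group, for example 94.3 CPM per kb in WT livers under HFD, against 0.931 CPM per kb for Pirb. It stood at 106, 89.4, 113 and 101 CPM in the WT and at 150, 145, 143 and 143 CPM in the N-LKO livers under HFD. The 4 N-LKO livers were close together (coefficient of variation 2.21%) and above all WT livers, with a log2 change of 0.51 (SE 0.083). Under WD it stood at 110, 118 and 112 CPM in the WT and 87.0, 86.5 and 97.3 CPM in the N-LKO livers, a log2 change of −0.33 (SE 0.13) and a difference of −0.82 (SE 0.12). Tumors were lower still or level with the N-LKO livers, at 71.3, 70.5 and 89.6 CPM.

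Txn2 (ENSMUSG00000005354.16, chr15:77915047-77929006, minus strand, 3 exons, 2049 bp) was at 87.2, 88.3, 98.6 and 98.9 CPM in WT and at 120, 131, 124 and 119 CPM in the N-LKO livers under HFD. All N-LKO livers were above all WT livers (log2 change 0.40, SE 0.077). Under WD it was at 88.8, 102.004 and 84.2 CPM in WT and at 75.1, 69.6 and 71.2 CPM in N-LKO livers, which lay below all WT livers (−0.35, SE 0.18). The difference was −0.73 (SE 0.12). The tumors did not form a narrow group: replicate 1 had 62.7 CPM, under every liver, while the other two had 99.5 and 103 CPM, near the highest WT liver.

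Pdk2 (ENSMUSG00000038967.13, chr11:95026258-95041354, minus strand, 11 exons, 2246 bp), which shares its locus with the annotated gene Gm11513 on the other strand, had the smallest HFD change of the 9 genes. WT livers held 77.7, 67.9, 67.7 and 69.9 CPM and N-LKO livers 91.7, 79.7, 77.8 and 89.5 CPM, a log2 change of 0.26 (SE 0.085). The lowest N-LKO liver was level with the highest WT liver, so that the groups only just failed to overlap. Under WD the gap was wide: 103.9, 104.4 and 101.1 CPM in WT against 73.8, 62.5 and 67.2 CPM in N-LKO livers, a log2 change of −0.60 (SE 0.18). The difference was −0.84 (SE 0.13). The tumor libraries 1 and 2, at 51.5 and 37.2 CPM, were below each N-LKO liver, and the other one was at 64.0 CPM.

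Lamtor4 (ENSMUSG00000050552.8, chr5:138255482-138259398, plus strand, 3 exons, 980 bp) held 15.8, 16.4, 17.9 and 17.8 CPM in WT and 25.9, 23.4, 23.6 and 22.3 CPM in the N-LKO livers under HFD. Each N-LKO liver exceeded each WT liver, with a log2 change of 0.49 (SE 0.092). Under WD the WT livers held 24.5, 27.9 and 21.6 CPM and the N-LKO livers 19.0, 19.9 and 17.7 CPM, so that the order was turned (−0.39, SE 0.16). The difference was −0.85 (SE 0.14), and the tumors, with 15.6, 18.5 and 22.8 CPM, surrounded the N-LKO livers.

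Bri3 (ENSMUSG00000047843.16, chr5:144244437-144446757, plus strand, 3 exons, 955 bp) is the shortest of the 9 and overlaps 5 other annotated genes, among them Baiap2l1 on the minus strand; with the strand setting of the counts not stated, reads of overlapping genes may be shared. It was at 40.4, 35.5, 35.6 and 34.6 CPM in WT and at 51.9, 48.7, 47.4 and 48.5 CPM in the N-LKO livers under HFD. All N-LKO livers were above all WT livers (log2 change 0.43, SE 0.080). Under WD the WT livers were at 48.3, 50.5 and 50.5 CPM and the N-LKO livers at 40.96, 40.02 and 40.05 CPM, both within a coefficient of variation of 2.51%. The change was −0.30 (SE 0.15, from the fit that also held the tumors) and the difference −0.71 (SE 0.11). Tumors spread from 32.5 over 41.1 to 49.2 CPM, from below the N-LKO livers into the WT range.

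**Figure D2:**
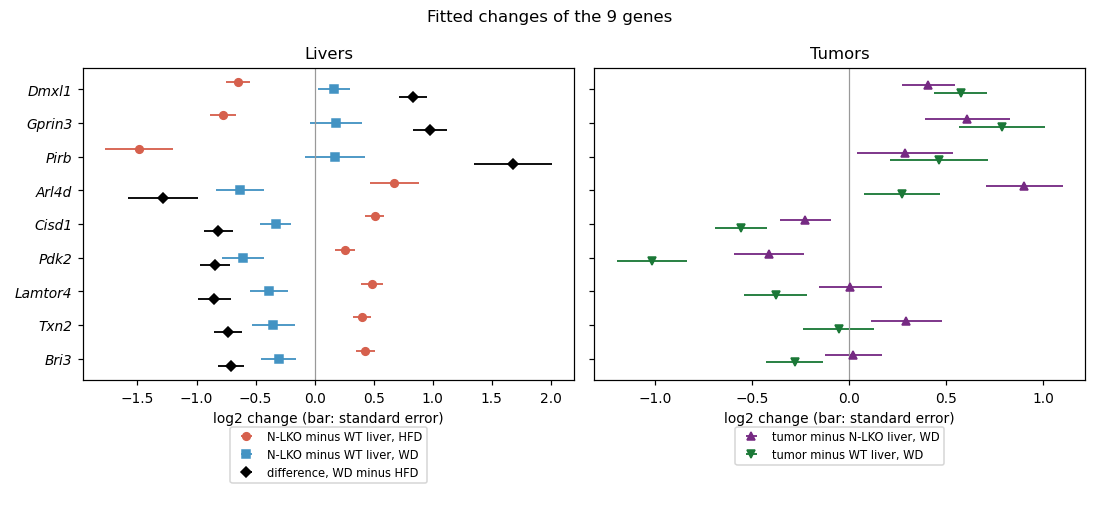
The log2 changes of the 9 genes are plotted with their standard errors, at left for N-LKO minus WT liver under HFD and under WD and for the difference of the 2 (WD minus HFD), at right for tumors against N-LKO and against WT livers under WD. The HFD and WD points lie on opposite sides of 0 for each gene, while the tumor points follow no such rule; Pdk2 has the lowest tumor value, −1.02 against WT liver.

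The tumors were then compared with the livers under WD. Against N-LKO livers, 0 of the 9 genes passed the threshold (0.499% of all 17829 genes did). An unadjusted p under 0.05 was seen for 4 of the 9 and for 3256 of the 17829 genes, and the libraries did not overlap for 2 of the 9, Dmxl1 and Arl4d (23.1% of all genes). Arl4d had the largest value, 0.90 (SE 0.20, edgeR adjusted p = 0.0775), with all 3 tumors above all 3 livers. By the DESeq2 test Arl4d passed (adjusted p = 0.00486), as 1021 genes in all did. For Lamtor4 (0.01, SE 0.16) and Bri3 (0.02, SE 0.15) the tumors and N-LKO livers had like means with wide error. Without tumor replicate 1, 3 of the 9 passed against N-LKO liver, in a fit in which 2193 of 18285 genes passed against 89 of 17829 with all libraries: Arl4d (0.99, adjusted p = 0.0177), Gprin3 (0.83, adjusted p = 0.0108) and Txn2 (0.49, adjusted p = 0.0381).

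Against WT livers, 4 of the 9 genes passed, beside 14.9% of all genes, and the groups did not overlap for the same 4 (34.1% of all genes). In the same comparison 6 of 6 hepatocyte markers were below 0 (median −0.77, Hnf4a and Ttr passing as lower), and 4 of 4 T-cell markers were above 0 (Cd3g and Cd4 passing as higher), with a T-cell sum of 2.61 to 3.22 CPM in WT livers, 3.92 to 4.89 CPM in N-LKO livers and 7.30 to 10.7 CPM in tumors. Cholangiocyte markers were split, 2 above 0 and 2 below, with Sox9 passing as higher. Of the sinusoidal endothelium markers 3 were above 0 and 2 below, with Pecam1 passing as higher and Clec4g as lower. Of the stellate cell markers 2 were above 0 and 3 below, with Reln passing as lower. With single libraries left out, Sox9 passed in 9 of 9 fits and Hnf4a, Ttr and Pecam1 in 6. Cd3g and Cd4 passed in 5, Reln in 4 and Clec4g in 1. Clec4g did not pass with the offset for length and GC content. The part of these cells in the tumor values was not tested. Dmxl1 was higher in tumors (0.57, SE 0.14, edgeR adjusted p = 0.0248), and so was Gprin3 (0.79, SE 0.22, adjusted p = 0.0402). Cisd1 was lower (−0.56, SE 0.13, adjusted p = 0.0244), and so was Pdk2 (−1.02, SE 0.18, adjusted p = 0.0112). For these 4 genes the tumor value had the sign of the N-LKO value under WD and was larger, but both were taken against the same WT livers. The remaining 5 did not pass: Lamtor4 was at −0.38 (SE 0.16, adjusted p = 0.137), Bri3 at −0.28 (SE 0.15, adjusted p = 0.214), Pirb at 0.46 (SE 0.25, adjusted p = 0.229), Arl4d at 0.27 (SE 0.20, adjusted p = 0.367) and Txn2 at −0.05 (SE 0.18, adjusted p = 0.867). With single libraries of the WD table omitted, Pdk2 passed in 9 of 9 fits. The other 3 did not: Cisd1 failed without tumor replicate 2 or any WT liver, Dmxl1 failed without these libraries or N-LKO liver replicate 3, and Gprin3 passed in 1 of the 9 fits, that without tumor replicate 1 (1.01, adjusted p = 0.00313). With the offset for length and GC content Cisd1 and Pdk2 still passed (adjusted p = 0.0420 and 0.0167), and Dmxl1 and Gprin3 did not (0.33, adjusted p = 0.125, and 0.70, adjusted p = 0.0698).

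The neighbours of each gene in its pathway were described next, without the 9 genes themselves, from lists that were chosen with earlier results of these data known. Mitochondrial iron-sulfur proteins and their assembly factors, the partners of Cisd1, were above 0 under HFD in 11 of 11 genes, with a median of 0.28 against −0.01 over all genes. Genes with the shortest transcripts also had medians on these sides of 0, with 0.21 under HFD and −0.31 in the difference between diets. The part of transcript length in the direction of this list and of the pathway lists below was not tested. Cisd3, a mitochondrial relative of Cisd1, rose by 0.65 (SE 0.099, edgeR adjusted p = 0.00939) and Glrx5, a glutaredoxin that carries iron-sulfur clusters, by 0.50 (SE 0.11, adjusted p = 0.0240), and both also passed with the offset for length and GC content. With single libraries left out, Cisd3 passed in 8 of 8 fits and Glrx5 in 4 (adjusted p up to 0.0702). In the difference between diets 11 of 11 were below 0 (median −0.51, against 0.0048 over all genes), and Cisd3 (−0.77, adjusted p = 0.0234) and Glrx5 (−0.72, adjusted p = 0.0385) passed, although neither did with the offset, and Cisd3 passed in 11 and Glrx5 in 3 of 14 fits with a library left out. In tumors against WT livers Isca1 (−0.71, adjusted p = 0.0153), Nfs1 (−0.42, adjusted p = 0.0381) and Lyrm4 (−0.65, adjusted p = 0.0480), which build the clusters, were lower, 3 of 11 beside 14.9% of all genes. With single libraries left out, Isca1 passed in 8 of 9 fits, Lyrm4 in 1 and Nfs1 in 0, and Lyrm4 did not pass with the offset for length alone.

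In the mitochondrial thioredoxin system, 8 of 8 neighbours of Txn2 were above 0 under HFD (median 0.13). In the difference 7 of these 8 neighbours were below 0 (median −0.26), both being also the directions of genes with short transcripts. Gpx4, which reduces lipid peroxides, was the only one to pass, under HFD (0.45, SE 0.10, edgeR adjusted p = 0.02998), and it did not with the offset and did in 3 of 8 fits with a library left out. Of the Ragulator and Rag GTPase genes around Lamtor4, Lamtor2 (0.41, SE 0.098, adjusted p = 0.0362) and Lamtor5 (0.50, SE 0.11, adjusted p = 0.0285), which are Ragulator subunits, were higher under HFD and Rptor, the mTORC1 subunit that the Rag GTPases bind, was lower (−0.36, SE 0.092, adjusted p = 0.0485). The transcripts of Lamtor2 and Lamtor5 measure 668 and 881 bp and that of Rptor 6594 bp, and none of these 3 genes passed with the offset. Each of the 3 passed in 1 of 8 fits with a library left out. Lamtor2 was also lower in the difference (−0.70, SE 0.16, adjusted p = 0.0429), again only without the offset, and in 2 of 14 fits with a library left out. In tumors Rragd, one of the Rag GTPases, was higher than in WT livers (3.06, SE 0.59, adjusted p = 0.0136, 8 of 9 fits with a library left out). BORC, a complex that positions lysosomes, had 7 of 8 genes above 0 under HFD and 7 of 8 below 0 in the difference, with 0 passing in either, and its subunit Kxd1 was lower in tumors (−0.95, SE 0.18, adjusted p = 0.0130, 9 of 9 fits).

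Of the vacuolar ATPase and its regulators other than Dmxl1, 0 of 17 passed in any of the 5 comparisons. Under HFD 14 of 17 were above 0 (median 0.20) and in the difference 13 of 17 were below 0 (median −0.18), with longest transcripts of 806 to 10614 bp. Among the other genes of the pyruvate dehydrogenase complex, its kinases and its phosphatases, 5 of 8 were above 0 under HFD and 6 of 10 were below 0 in the difference, with 0 passing. In tumors, Pdk1, a kinase like Pdk2 (−0.80, SE 0.14, edgeR adjusted p = 0.0107), and Pdp2, a phosphatase that switches the complex back on (−1.23, SE 0.23, adjusted p = 0.0122), were lower than in WT livers, and both passed in 9 of 9 fits with a library left out. Gnai2, an inhibitory G protein subunit, was higher under HFD (0.32, SE 0.071, adjusted p = 0.02998) but not with the offset, and in 3 of 8 fits with a library left out. Gprin2, a relative of Gprin3, was higher in tumors than in N-LKO (adjusted p = 0.0462) and WT livers (adjusted p = 0.0113), from 14 to 52 counts per tumor against 2 to 3 and 0 to 3 per liver, too few for a reliable fold. The call against N-LKO livers held in 1 of 9 fits with a library left out (adjusted p up to 0.256), and that against WT livers in 9 of 9. The list of receptors related to Pirb also held signalling partners such as Ptpn6, Tyrobp and Fcer1g and was not confined to inhibitory receptors. Without Pirb, 8 of 10 genes were below 0 under HFD (median −0.24) and 8 of 10 above 0 in the difference (median 0.42). This is the direction of Pirb itself, and 0 passed. Among the partners of Arl4d and those of Bri3, 0 passed under HFD or in the difference, and Itm2c, a membrane protein listed beside Bri3, was higher in tumors than in WT livers (0.67, SE 0.16, adjusted p = 0.0258, 6 of 9 fits with a library left out).

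Transcript length went along with these changes. The 6 genes with a negative difference between diets have longest transcripts of 955 to 2246 bp and a GC content of 52.3% to 58.3%, and the 3 with a positive difference 3824 to 12247 bp and 38.3% to 48.5%. Across all genes, the HFD change fell with length (Spearman correlation −0.354 across 13210 genes, which are not independent replicates). Divided into 10 equal bins by length, genes had a median of 0.21 in the shortest bin and −0.19 in the longest. Under WD the trend was weaker and turned, with a correlation of 0.128 and medians of −0.10 and 0.08. The difference between diets rose with length (0.335), from a median of −0.31 to 0.24. In its shortest bin 2 genes passed as higher and 53 as lower, and in its longest bin 41 as higher and 1 as lower. Tumors showed little of it, with −0.016 against N-LKO and 0.062 against WT livers. GC content had a correlation of −0.283 with the difference, −0.280 with the WD change and 0.108 with the HFD change.

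**Figure D3:**
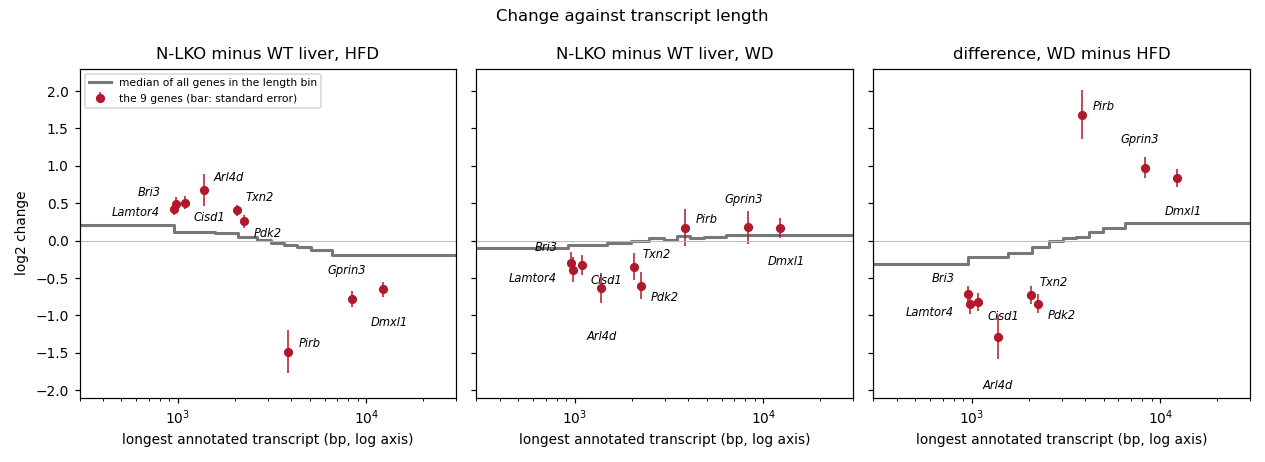
The log2 change is plotted against the length of the longest annotated transcript (log axis) for N-LKO minus WT liver under HFD, under WD, and for the difference; the grey steps are medians of all genes in 10 equal length bins, from 0.21 down to −0.19 under HFD and from −0.31 up to 0.24 for the difference, and the red points are the 9 genes with standard errors. In the left and right panels every red point lies on the side of 0 of the grey line at its length, and farther from 0.

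Each of the 9 genes lay on the same side of 0 as the median of its length bin, under HFD and in the difference, and farther from 0 than that median. Under HFD, the change minus the bin median was −0.46 for Dmxl1, −0.59 for Gprin3 and −1.43 for Pirb, whose bin had a median of −0.05. For the short genes it ran from 0.20 for Pdk2 to 0.55 for Arl4d, with Cisd1 at 0.39, Lamtor4 at 0.37, Bri3 at 0.31 and Txn2 at 0.30. In the difference, Bri3 stood at the percentile 9.01 of its bin, Txn2 at 6.76, Cisd1 at 6.44, Lamtor4 at 5.67, Pdk2 at 3.73 and Arl4d at 1.74, while Dmxl1 stood at 92.5, Gprin3 at 95.0 and Pirb at 98.1. The genes were chosen for extreme values, so such percentiles describe the choice.

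The trend was present in single libraries. With each library set against the mean of its table, the correlation of level with length was 0.076 to 0.266 in the 4 WT livers under HFD and −0.276 to −0.160 in the 4 N-LKO livers. The genotypes were thus apart under HFD. Under WD the correlation was −0.104 to −0.063 in WT livers, 0.017 to 0.109 in N-LKO livers and −0.035 to 0.057 in tumors. WT livers were thus below N-LKO livers and tumors under WD too, while the ranges of N-LKO livers and tumors overlapped. Whether this trend arose in the tissue or in the handling of the RNA was not tested.

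**Figure D4:**
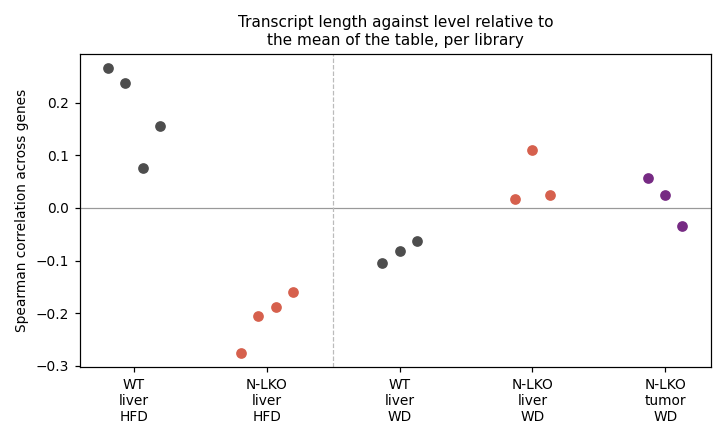
For each library the Spearman correlation across genes between transcript length and the log2 level relative to the mean of the library's table is plotted by group. All 4 WT livers under HFD lie above 0 (0.076 to 0.266) and all 4 N-LKO livers below it (−0.276 to −0.160); under WD all points lie between −0.104 and 0.109.

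An offset for length and GC content, fitted per library, was then added to the model of the difference. The number of genes called fell from 257 to 18, and that of the 9 genes from 9 to 0. All 9 kept their sign and between 47.4% and 97.3% of their size. Bri3 went from −0.71 to −0.34, Dmxl1 from 0.84 to 0.41 and Lamtor4 from −0.85 to −0.49, which are the largest losses. Cisd1 went to −0.54, Gprin3 to 0.70, Txn2 to −0.55, Pdk2 to −0.64 and Arl4d to −1.01. Pirb was hardly moved, from 1.68 to 1.64. An offset for length alone left 0 genes called in the whole fit, 0 of the 9 among them. Under HFD, the offset for length and GC content brought the count from 652 to 287 genes and, of the 9, Gprin3, Pirb, Cisd1 and Txn2. Under WD it turned Dmxl1 from 0.17 to −0.07.

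**Figure D5:**
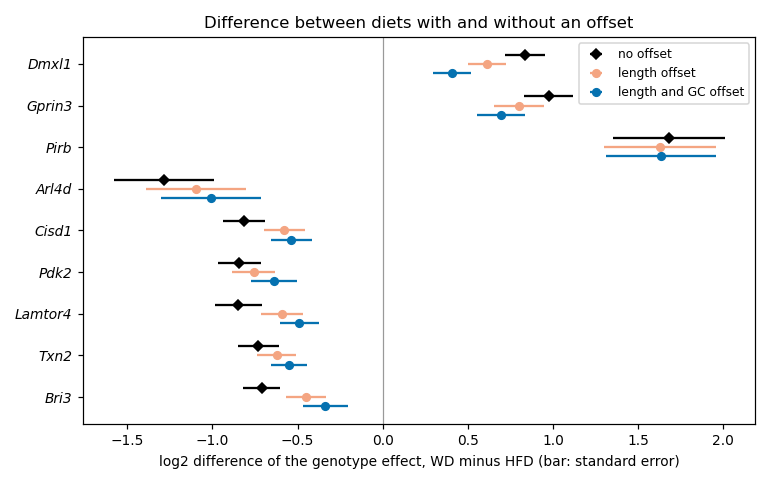
The log2 difference of the genotype effect (WD minus HFD) of the 9 genes is plotted without an offset (black), with an offset for transcript length (orange) and with one for length and GC content (blue); bars are standard errors. All 9 genes stay on their side of 0; Pirb ends at 1.64 of 1.68, and Bri3 at −0.34 of −0.71.

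The gene whose level ran most like that of each member over the 17 libraries, after each table was centred on its own mean, was searched among 9193 genes of at least 5 CPM in both tables (9194 for Pirb). These correlations are descriptions over libraries that share depth and composition. For Dmxl1 it was Dennd1b (Pearson r = 0.920, longest transcript 10770 bp), and for Gprin3 it was Birc6 (0.919, 15768 bp), both long genes. For Lamtor4 it was Ap2s1 (0.935, 1054 bp), for Cisd1 Pet100 (0.930, 1193 bp), for Txn2 Ndufb9 (0.954, 704 bp), for Bri3 Ndufb10 (0.902, 834 bp) and for Arl4d Polr2l (0.838, 1650 bp), all of them short. Pdk2 ran with Pgpep1 (0.955, 4883 bp) and Pirb with Lcor (0.889, 4833 bp). Within the 9, Lamtor4 and Bri3 were the closest pair (0.893), and Dmxl1 and Cisd1 were the most opposed (−0.933). The livers that chose the 9 genes are among these libraries, so correlations within the 9 follow in part from the choice.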

How the data were processed

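Total RNA was depleted of ribosomal RNA and sequenced on an Illumina HiSeq. The authors aligned reads (TopHat2 in their methods, STAR and Partek with mm9 in the submitters' processing notes; the positions in the tables are those of GRCm38) and deposited estimated counts per gene, 1 table per diet, in which 69.3% (HFD) and 66.2% (WD) of the values were whole. Counts were rounded, genes of low count were removed by edgeR's filterByExpr, and libraries were scaled by TMM. Quasi-likelihood fits (edgeR 4.0.16, limma 3.58.1, R 4.3.3) were made over the 8 HFD livers, over the 9 WD libraries, and over the 14 livers for the difference (genotype by diet), with p-values adjusted by Benjamini-Hochberg over all genes tested and a threshold of 0.05. CPM used TMM-scaled library sizes. Length, GC content and positions are from GENCODE M21 (97.7% and 97.4% of symbols matched), and the offset was a smooth curve of length and GC content per library. DESeq2 1.42.0, voom, other scalings and filters, leaving out each library, a replicate block and the offset were the alternatives. The code was tested on simulated data. The 9 genes, the pathway lists and the marker lists were chosen with earlier results of these data known; list genes are named where they passed. Libraries of a group differed beyond sampling noise (chi-square per degree of freedom 6.71 to 87.1 over 21 pairs), so none was merged.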

Additional observations from a re-analysis of the deposited data

Results flagged for a closer look

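The knockout effect differed between the diets, by the test of the interaction that also chose the genes, for Dmxl1 (0.84), Gprin3 (0.98), Pirb (1.68), Arl4d (−1.29), Cisd1 (−0.82), Pdk2 (−0.84), Lamtor4 (−0.85), Txn2 (−0.73) and Bri3 (−0.71). Since the choice rests on this contrast, these values are descriptions, and diet cannot be told apart from table in it. With the offset for length and GC content, with that for length alone or with the replicate block, 0 of the 9 passed. Among the genes of their pathways the knockout effect differed for Lamtor2 (−0.70), Cisd3 (−0.77) and Glrx5 (−0.72). Their lists were chosen with earlier results of these data known, and these 3 calls were lost once length and GC content were offset.

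One library stood apart from its group: Bri3 was at 40.4 CPM in WT liver replicate 1 under HFD, with the other three at 34.6 to 35.6 CPM. The gap to the nearest library was 0.835 of the range, just past the critical value of Dixon's test at the 95% level. Of 20 groups tested over the 9 genes and Nus1, 1 met this rule, and chance alone meets it in about 1 group of 20. All of these were HFD groups. The WD groups of livers and tumors have fewer libraries and were not tested by this rule.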

How the results depend on the processing

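In the difference between diets, 257 genes and 9 of the 9 passed as reported. DESeq2 gave 923 genes, the offset for length and GC content 18 genes and 0 of the 9, the length offset alone 0 and 0, and leaving out 1 library 22 to 330 genes and 5 to 9 of the 9, the lowest without N-LKO liver replicate 3 under WD. Counts fell by over 1.5 times without WT liver HFD replicates 1 (88), 2 (59) and 4 (51 higher, 98 lower), N-LKO liver HFD replicates 1 (61), 2 (64 higher, 100 lower), 3 (54 higher, 98 lower) and 4 (160), WT liver WD replicates 1 (91) and 2 (66), and N-LKO liver WD replicates 1 (90) and 2 (61). Under HFD (652 genes, 7 of the 9) DESeq2 gave 999, the offset for length and GC content 287 and 4 of the 9, the length offset 265, and single libraries left out 179 to 597 genes and 3 to 7 of the 9, lowest without WT replicate 2 (179) and N-LKO replicate 1 (181), then WT replicate 4 (225) and N-LKO replicates 3 (276) and 4 (322). Under WD (0 genes) DESeq2 gave 99, the fit of the compared groups alone 6, and left-out libraries 0 to 1.

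For tumors against N-LKO livers (89 genes, 0 of the 9) DESeq2 gave 1021 and 1 of the 9, a mean of 1 CPM as filter 58, voom 0, the compared groups alone 29, and left-out libraries 3 to 2193 and 0 to 3 of the 9, highest without tumor replicate 1; 52, 30, 27, 26, 5, 3 and 6 genes passed without tumor replicates 2 and 3, WT replicates 1 and 3, and N-LKO replicates 1, 2 and 3. Against WT livers (2653 genes, 4 of the 9) the compared groups alone gave 705 and 1 of the 9, the offset 2 of the 9, and left-out libraries 569 (WT replicate 2) to 3819 and 1 to 4 of the 9, with 1218, 1531, 1494 and 1654 genes without WT replicates 1 and 3, tumor replicate 2 and N-LKO replicate 3. The length trend at a mean of at least 5 CPM was −0.444 under HFD, 0.246 under WD, 0.109 for tumors against WT and 0.485 for the difference; with single libraries left out it ran from −0.357 to −0.302 under HFD and, for the WD livers, from 0.0955 to 0.129.

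A replicate block was fitted by the replicate number of the labels. Same-numbered libraries did not deviate together (correlations −0.0759 to 0.107 under HFD and −0.124 to 0.101 under WD). The labels do not say what these numbers pair, so the correlations neither show nor exclude a pairing of libraries. With the block, 0 genes and 0 of the 9 passed in the difference and 36 genes in tumors against N-LKO livers. Clec4f, Gnai2, Gpx4, Lamtor2, Marco, Rptor and Vsig4 under HFD, Cisd3, Glrx5 and Lamtor2 in the difference, Gprin2 and Sox9 in tumors against N-LKO livers, and Hnf4a, Lyrm4 and Nfs1 in tumors against WT livers did not pass with it. The block with the offset gave 170 genes and 1 of the 9 under HFD, 0 and 0 in the difference, 39 in tumors against N-LKO livers, and 1710 and 1 of the 9 in tumors against WT livers.

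These values changed sign, most of them from a value near 0. Dmxl1 under WD became −0.07 with the offset, with and without the block. Txn2 in tumors against WT livers became 0.016 with upper-quartile scaling, 0.14 without tumor replicate 1 and 0.03 without WT replicate 2, from a range down to −0.18 without tumor replicate 2. Lamtor4 in tumors against N-LKO livers became −0.0024 with no filter, −0.013 by voom, −0.036 with the offset and with the block and offset, −0.15 without tumor replicate 3 and −0.042 without N-LKO replicate 3, against 0.13 without tumor replicate 1. Bri3 there became −0.025 with the offset, −0.029 with block and offset, and −0.13 without tumor replicate 3, against 0.16 without tumor replicate 1. Cisd3 under WD became 0.0087 with the offset and 0.0091 with block and offset. The cause of these changes was not tested.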
